A study of Rattus norvegicus with 6 samples.

Results

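The electrolyte and fluid transporters described here are a list of 9 intestinal ion transporters and channels: the absorptive exchangers Slc9a2, Slc9a3, Slc26a3 and Slc26a6, the secretory proteins Cftr, Slc12a2, Kcnq1 and Slc4a4, and the sodium pump subunit Atp1b1. They were found on a 1-colour Agilent rat array as the non-control probes whose RefSeq accession belongs to a listed gene. That gave 9 probes for 8 of the 9 genes, out of 41012 probes on the array, of which 17512 were matched to 13837 gene symbols. No probe was matched to Slc26a6. The jejunum came from male Sprague-Dawley rats of 6 weeks, weighing 200 ± 20 g and housed at 25°C and 60% humidity. The control group (3 arrays) stayed in these conditions, and the S3d group (3 arrays) was also heated to 35°C and vibrated at 0.1 g for 2 h on each of 3 days. Each array held RNA pooled from 3 rats, and the labels give 10 rats per group. The study's methods give fewer rats per group, too few for 3 pools of different animals. Whether pools shared rats is not given, so the p-values measure only the spread between these pools.

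Salt and water cross the intestinal wall in both directions. On the villus, the apical sodium-proton exchangers Slc9a3 (NHE3) and Slc9a2 (NHE2) work beside the chloride-bicarbonate exchangers Slc26a3 (DRA) and Slc26a6 (PAT1) to take up sodium chloride, and water follows. In secretion, the basolateral cotransporter Slc12a2 (NKCC1) loads the cell with chloride, Slc4a4 (NBCe1) brings in bicarbonate, the potassium channel Kcnq1 keeps the cell electrically negative, and the chloride channel Cftr lets the anions out at the apical side. The sodium pump, of which Atp1b1 is the beta-1 subunit, drives both. The second messengers cAMP and cGMP, acting through their protein kinases, open Cftr and slow Slc9a3.

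All values below are the log2 processed signal of a spot minus the 75th percentile of the same quantity on its array, called the scaled log2 signal. The 75th percentile of the processed signal lay between 414.4 and 430.1 on the arrays labelled control and between 1456 and 1566 on those labelled S3d, and no spot was saturated. The share of spots well above background was from 69.1% to 73.7% in the former and from 77.5% to 81.5% in the latter. The 3 arrays of a group shared a slide, with 450 days between the scans of both slides, and neither can be told apart from the group. The authors also deposited a table of normalized log2 values. Each of its 6 columns followed a scanner file that carries the opposite group label and an equal replicate number, and the rank correlation with the file of its own sample was between 0.941 and 0.948. Thus the scanner files and the table carry opposite group labels. No sample was moved, and every difference given here is S3d minus control by the labels of the scanner files. The deposited table gives the opposite direction for most of the transporter probes, and its values are set beside these below. Jejunal villus genes were found on the arrays, among them Fabp2, Alpi and Lct, while no probe was matched to the sucrase gene Si.

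Of the 8 transporter genes measured, 4 were lower and 3 higher on the arrays labelled S3d, and Slc26a3 was not called (limma, adjusted p under 0.05, brightest probe of each gene). Slc9a3 fell the most, 5.62-fold, and Cftr fell 3.12-fold, while a probe of Slc12a2 rose 3.31-fold and Kcnq1 rose 2.08-fold. Slc9a2, Atp1b1 and Slc4a4 changed by less than 1.5-fold. Of all 31424 probes tested on the array, 73.9% were called, 39.4% as higher and 34.5% as lower, so a count of calls alone does not set the transporters apart from the rest of the array. Of all calls, 53.4% were higher on these scaled values, 98.1% without scaling and 30.1% after normexp background correction with the same scaling. For 8 of the 9 transporter probes the groups were fully apart, as they were for 78.9% of all tested probes.

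**Figure D1:**
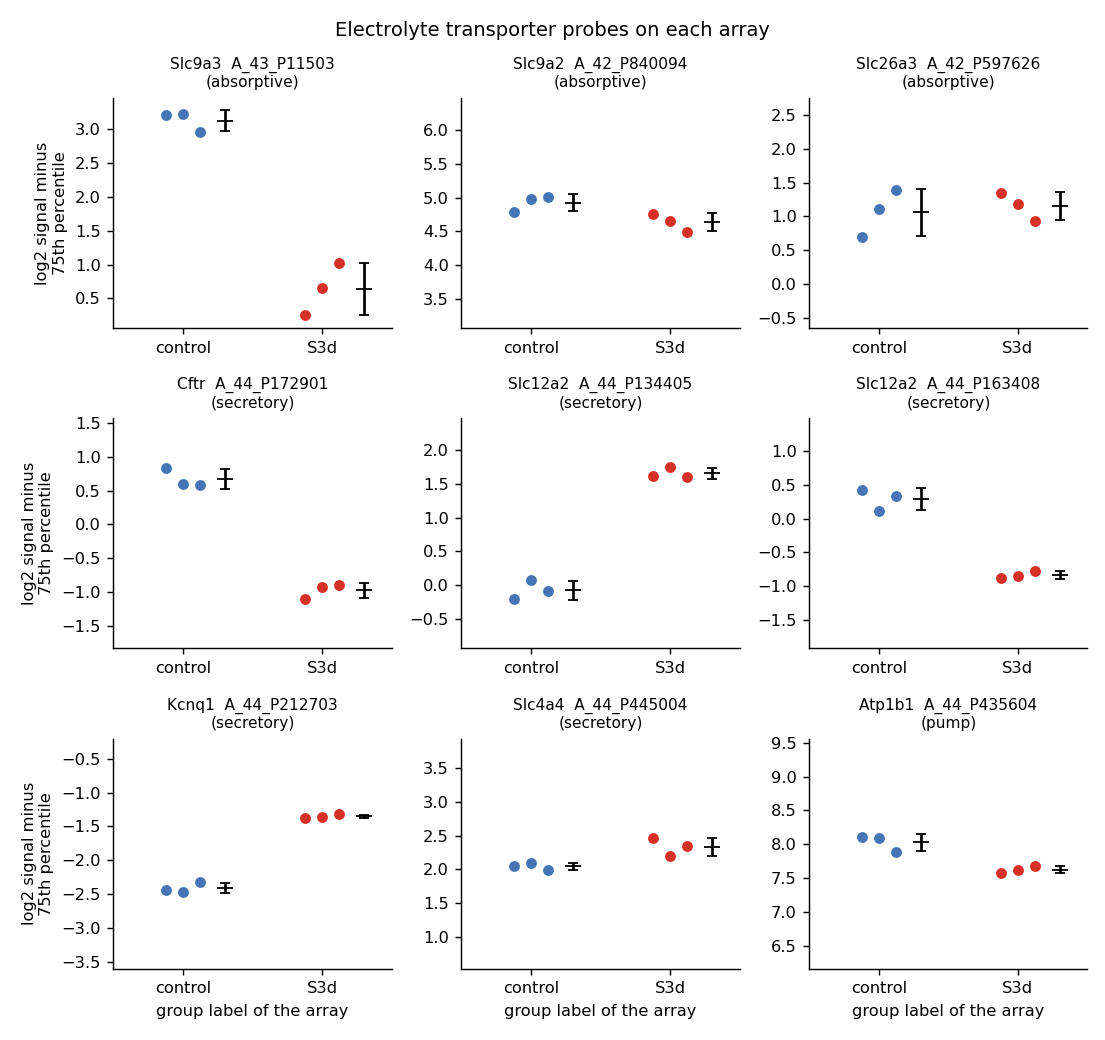
Scaled log2 signal (vertical axis, log2 units, the same span in every panel) of the 9 transporter probes on each array, blue for arrays labelled control and red for arrays labelled S3d, with black bars for the mean ± SD of 3 arrays. The groups overlap only for Slc26a3, and the difference is widest for Slc9a3, at -2.49.

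Among the absorptive genes, Slc9a3 (NM_012654), the exchanger that carries most of the sodium uptake of the villus, was at 3.21, 3.22 and 2.95 on the arrays labelled control. On the arrays labelled S3d it was at 0.25, 0.65 and 1.02. Every array labelled S3d was below every array labelled control, and the arrays labelled S3d were spread more widely. The log2 fold change, here with its standard error (SE), was -2.49 ± 0.20 (SE, limma, adjusted p = 0.00011), and 1% of all tested probes had an equal or more negative value. Its probe was the only transporter probe that was also lower without scaling between arrays, at -0.64.

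The Slc9a3 probe was spotted 10 times on each array, which gives the error of a spot within an array. The SD among the 10 spots of an array was between 0.033 and 0.079 on the log2 scale. The SD between arrays was 0.15 in the group labelled control and 0.38 in the group labelled S3d. The arrays labelled S3d thus differed by more than the error of their spots. Each pool was on its own array, so a difference between pools and an error of a whole array cannot be told apart.

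Slc9a2 (NM_012653), the second apical sodium-proton exchanger, was at 4.79, 4.99 and 5.01 on the arrays labelled control. On the arrays labelled S3d it was at 4.76, 4.66 and 4.50. The lowest array labelled control lay just above the highest array labelled S3d. The log2 fold change of -0.29 ± 0.10 (SE, limma, adjusted p = 0.039) lost its call without control replicate 2 (-0.26) or 3 (-0.25) and without S3d replicate 2 (-0.30) or 3 (-0.22). Quantile normalization turned its sign (0.16, not called).

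Slc26a3 (NM_053755), which exchanges luminal chloride for bicarbonate, was at 0.69, 1.11 and 1.38 on the arrays labelled control. It was at 1.35, 1.19 and 0.93 on the arrays labelled S3d. The groups overlapped, and the log2 fold change of 0.10 ± 0.20 (SE, limma, adjusted p = 0.68) was smaller than the SD of either group, 0.35 and 0.21. Its sign turned without control replicate 1 (-0.089) and, at -0.001, without S3d replicate 1. The ratio of Slc26a3 to Slc9a3 within an array does not depend on the scaling between arrays, and it was 6.00-fold higher on the arrays labelled S3d. The ratio of Slc9a3 to Slc9a2 was 4.60-fold lower there.

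Among the secretory genes, Cftr (NM_031506), the apical anion channel, was at 0.83, 0.59 and 0.59 on the arrays labelled control. It was at -1.10, -0.92 and -0.90 on the arrays labelled S3d. The groups stood far apart compared with the spread within them. The log2 fold change was -1.64 ± 0.10 (SE, limma, adjusted p = 4.0e-05), and 4.5% of all tested probes were equal or lower. Its unscaled signal was nearly level, with a difference of 0.20 (adjusted p = 0.12), against a median of 1.93 over all tested probes.

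Kcnq1 (NM_032073), the basolateral potassium channel, was at -2.44, -2.47 and -2.32 on the arrays labelled control. It was at -1.37, -1.37 and -1.32 on the arrays labelled S3d. All arrays labelled S3d were higher, and the group's SD was 0.03. The log2 fold change was 1.06 ± 0.07 (SE, limma, adjusted p = 4.5e-05). Its processed signal on the arrays labelled control was low, between 76.3 and 86.3. With normexp background correction before the same scaling the difference was -0.016 and not called. There control replicate 3 (-0.33) stood apart from control replicates 1 (-1.95) and 2 (-1.91). The arrays labelled S3d were at -1.45, -1.40 and -1.38. The ratio of Kcnq1 to Cftr within an array was 6.49-fold higher on the arrays labelled S3d.

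Slc4a4 (NM_053424), the sodium-bicarbonate cotransporter, was at 2.06, 2.10 and 1.99 on the arrays labelled control. It was at 2.46, 2.19 and 2.35 on the arrays labelled S3d. The groups did not overlap but lay close. The log2 fold change of 0.28 ± 0.09 (SE, limma, adjusted p = 0.026) lost its call under median centring (0.10) and without control replicate 1 (0.29) or 3 (0.26) and S3d replicate 1 (0.22) or 3 (0.28), each left out alone.

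Slc12a2, the cotransporter that loads the secreting cell with chloride, has a pair of probes, and they went opposite ways. Probe A_44_P134405 was at -0.20, 0.07 and -0.09 on the arrays labelled control and at 1.61, 1.75 and 1.60 on those labelled S3d. This probe changed by 1.73 ± 0.09 (SE, limma, adjusted p = 2.7e-05). Probe A_44_P163408, spotted 10 times, was at 0.42, 0.11 and 0.34 on the arrays labelled control and at -0.88, -0.85 and -0.77 on those labelled S3d. This probe changed by -1.12 ± 0.10 (SE, limma, adjusted p = 0.00013). Both probes carry the accession NM_031798, and the groups did not overlap on either. The ratio of the probes within an array changed 7.21-fold between the groups. No direction can be given for the gene, and the rise counted above rests on the brighter probe.

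**Figure D2:**
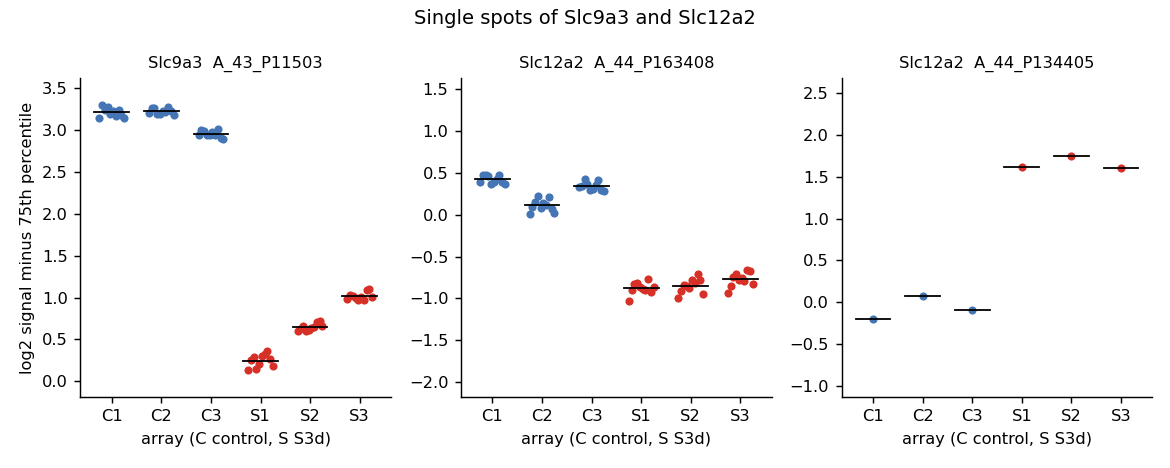
Scaled log2 signal (vertical axis, log2 units) of every spot of the Slc9a3 probe and of both Slc12a2 probes on the arrays labelled control (C1 to C3, blue) and S3d (S1 to S3, red), with the array mean as a black line. The 10 spots of an array cluster tightly around their mean, and the 2 Slc12a2 probes move in opposite directions, by -1.12 and 1.73.

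Atp1b1 (NM_013113), which brings the sodium pump to the basolateral membrane, was at 8.11, 8.09 and 7.89 on the arrays labelled control. It was at 7.57, 7.62 and 7.68 on the arrays labelled S3d. The log2 fold change was -0.40 ± 0.08 (SE, limma, adjusted p = 0.0054), with every array labelled S3d lower. Its direction depended on the scaling, since quantile normalization gave 0.80 (adjusted p = 0.00022). Its processed signal was between 101726 and 116038 on the arrays labelled control and between 277440 and 321809 on the others.

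In the deposited table, read by its own labels, Slc9a3 was 2.36 higher in S3d, Cftr 1.65 higher and the repeated probe of Slc12a2 1.13 higher, on the log2 scale. The other probe of Slc12a2 was at -1.77, Kcnq1 at -0.95 and Slc4a4 at -0.43. These 6 were called there (adjusted p from 3.5e-05 to 0.0048, limma) and had the opposite sign to the scanner files. Atp1b1 was at -0.75 (adjusted p = 0.00074), the same sign as above. Slc9a2 (-0.14) and Slc26a3 (-0.13) were not called. The direction of the 6 probes differs between these 2 sources, and which labels hold was not settled here.

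**Figure D3:**
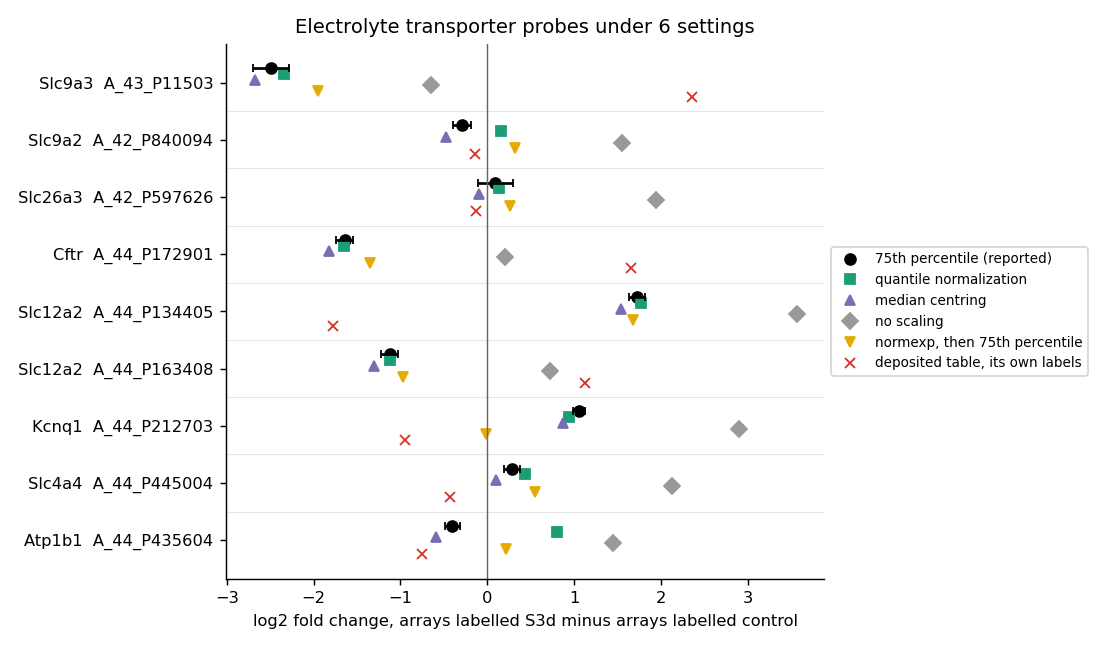
Log2 fold change (horizontal axis, S3d minus control by the scanner labels) of the 9 transporter probes under 6 settings given in the legend, with the standard error for the reported setting. Red crosses, the deposited table read by its own labels, mirror the black points for Slc9a3, Cftr, Kcnq1 and both Slc12a2 probes, and grey diamonds, without scaling, lie to the right of 0 for 8 of the 9 probes.

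Absorptive and secretory genes were set against each other within each array, where the scaling cancels. The mean over Slc9a2, Slc9a3 and Slc26a3 minus the mean over Cftr, Slc12a2, Kcnq1 and Slc4a4 was 2.83, 3.03 and 3.07 on the arrays labelled control. It was 1.72, 1.75 and 1.72 on the arrays labelled S3d. Only its change is read, since levels of different probes cannot be compared. It was 1.25 lower on the arrays labelled S3d, and the difference shrank to 0.54 with the other probe of Slc12a2 and to 0.79 without Slc12a2. On the absorptive side most of it came from Slc9a3 (-2.49), beside Slc9a2 (-0.29) and Slc26a3 (0.10). The contrast without Slc9a3 was not computed, so its size and sign may rest on that gene. In the deposited table by its own labels the same contrast was 1.07, the opposite sign. Both alternatives for Slc12a2 were chosen after the values were seen. Neither class moved as a block, since Slc26a3 stood apart from Slc9a3, and Cftr fell while Kcnq1 and Slc4a4 rose. The median log2 fold change was -0.29 over the absorptive genes and 0.67 over the secretory genes, beside 0.09 over all tested probes. With the other probe of Slc12a2 the secretory median was -0.42, and without the gene it was 0.28, so its sign rests on that choice.

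The promoter windows of 3 of these genes are shown because Slc9a3 and Cftr were the genes with the largest falls and Slc26a3 was the gene whose groups overlapped. RefSeq windows of the rat assembly GRCr8, from 250 bases before to 50 after a gene's start, were matched for 6 of the 9 genes. Capitals mark GC boxes (GGGCGG, either strand), 5′ to 3′:
Slc9a3, chr1:30995953-30996252, minus strand: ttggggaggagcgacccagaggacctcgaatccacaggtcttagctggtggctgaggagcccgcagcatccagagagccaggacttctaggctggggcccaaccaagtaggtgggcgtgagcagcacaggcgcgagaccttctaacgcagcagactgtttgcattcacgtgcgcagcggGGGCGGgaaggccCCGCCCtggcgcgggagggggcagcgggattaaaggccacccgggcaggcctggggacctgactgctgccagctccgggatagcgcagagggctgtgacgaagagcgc
Cftr, chr4:47527379-47527678, plus strand: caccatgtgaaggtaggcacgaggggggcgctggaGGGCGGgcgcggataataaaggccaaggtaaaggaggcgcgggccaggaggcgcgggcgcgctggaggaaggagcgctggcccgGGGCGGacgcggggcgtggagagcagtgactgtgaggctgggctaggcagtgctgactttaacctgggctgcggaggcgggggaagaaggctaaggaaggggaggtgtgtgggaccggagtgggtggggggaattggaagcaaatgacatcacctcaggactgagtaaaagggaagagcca
Slc26a3, chr6:53751165-53751464, plus strand: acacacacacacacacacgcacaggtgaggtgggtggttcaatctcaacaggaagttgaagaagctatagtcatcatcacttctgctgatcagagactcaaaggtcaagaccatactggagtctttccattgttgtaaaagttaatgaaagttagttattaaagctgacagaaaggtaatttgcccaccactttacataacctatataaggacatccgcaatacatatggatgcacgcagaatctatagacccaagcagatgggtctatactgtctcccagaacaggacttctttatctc
The Slc9a3 and Cftr windows each hold 2 GC boxes and the Slc26a3 window holds none. Of the windows not shown, Slc9a2 holds 7, Slc12a2 holds 3 and Slc4a4 none, where 33.1% of 33469 rat promoter windows hold at least 1. Their GC content was 66.7% for Slc9a3, 65% for Cftr and 41.7% for Slc26a3, and 78.3% for Slc9a2, 80.7% for Slc12a2 and 78% for Slc4a4, beside a median of 51.7%. No TATA box (TATAAA, in 14.2% of windows), cAMP response element (TGACGTCA, in 1.83%) or heat shock element (GAANNTTC, in 8.59%) was found on either strand of the 6 windows. Only these letters were searched, with N for any base, so variant forms of an element would be missed. The letter matches do not overlap each other in these 3 windows and are descriptions of the sequence only.

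The other genes of electrolyte transport were read from a list of 104 genes in 7 roles. Of these, 88 were tested, 24 were higher in S3d by the scanner labels and 40 lower, and the median log2 fold change was -0.17. Called genes were 72.7% of those tested, beside 73.9% of all probes. The split was 24 higher and 35 lower under quantile normalization, 20 and 48 under median centring, 78 and 3 without scaling, and 35 and 24 in the deposited table by its own labels. Each gene is given by its brightest probe, and every pathway gene named below except Sctr had the opposite sign in the deposited table by its own labels.

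Among 12 tested genes of sodium and proton exchange, 4 were higher and 4 lower. Nherf1, the scaffold that holds Slc9a3 at the microvillus, changed by -0.45 ± 0.08 (SE, limma, adjusted p = 0.0022). Pdzk1, a related scaffold, changed by -0.32 (adjusted p = 0.036), lost its call on leaving out any array but S3d replicate 1 (-0.33 to -0.23), and was at -0.01 under quantile normalization. Chp1, a calcium-binding partner of the exchangers, had the most negative value, -0.99 (adjusted p = 4.8e-05). The most positive was Scnn1g, a subunit of the epithelial sodium channel, which was not well above background on any array labelled control (adjusted p = 0.003). On these scaled values it was at least 2.22-fold higher on the arrays labelled S3d. This counts each control array at the lowest signal that is well above background, or at its own where that is higher. Scnn1g passed the filter through the S3d arrays alone, and normexp with the same scaling gave -1.62 (not called). With only genes well above background on all 6 arrays, 11 of this role were tested, 3 higher and 4 lower.

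Among 14 tested genes of chloride and bicarbonate exchange, including the carbonic anhydrases, 4 were higher and 7 lower. With only genes well above background on all 6 arrays, 11 were tested, 3 higher and 5 lower. Car4, the carbonic anhydrase on the apical membrane, had the most negative log2 fold change, -2.25 ± 0.30 (SE, limma, adjusted p = 0.00084). Slc4a5, a sodium-bicarbonate cotransporter, was measured at 2.80 ± 0.33 (SE, adjusted p = 0.00047), but it passed the filter through the S3d arrays alone, with 1 of 3 arrays labelled control well above background, and normexp with the same scaling gave -1.05 (not called). Among 10 tested chloride channel genes, 3 were higher and 3 lower (4 and 2 under quantile normalization), from Clca2 at 2.06 (adjusted p = 0.00019) to Lrrc8a, a subunit of the volume-regulated anion channel, at -1.51 (adjusted p = 3.7e-05).

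Of the 10 potassium channel and cotransporter genes tested, 2 were higher and 5 lower. Kcne3, the subunit that holds Kcnq1 open in the intestine, changed by -1.10 ± 0.11 (SE, limma, adjusted p = 0.00027), while Kcnq1 itself was higher. Kcnn4, the calcium-activated potassium channel of secreting cells, changed by -1.41 (adjusted p = 2.0e-05). The inward rectifier Kcnj13 had the most positive value, 1.55 (adjusted p = 0.008). Of the 9 other sodium pump genes tested, 3 were higher and 5 lower. Fxyd3 (-1.88, adjusted p = 1.6e-05) and Fxyd2 (-1.33, adjusted p = 0.00011), small regulators of the pump, had the most negative values. Fxyd1, another member of that family, was among the higher genes (0.58, adjusted p = 0.0019).

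Of 8 aquaporins, the water channels, 3 were higher and 3 lower. Aqp8 was at 0.30, 0.45 and 0.79 on the arrays labelled control and at 3.65, 3.39 and 2.84 on those labelled S3d. This probe changed by 2.78 ± 0.23 (SE, limma, adjusted p = 0.00012), and 4.63 without scaling. Aqp1, the channel of capillaries, was at 0.75 (adjusted p = 0.0068). Aqp7, which also carries glycerol, was at -1.66 (adjusted p = 3.7e-05). Aqp3 was at -0.67 (adjusted p = 0.023) and was not called under quantile normalization (-0.38). With an array left out it ranged from -0.83 to -0.51 and lost its call in 3 of 6 fits.

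**Figure D4:**
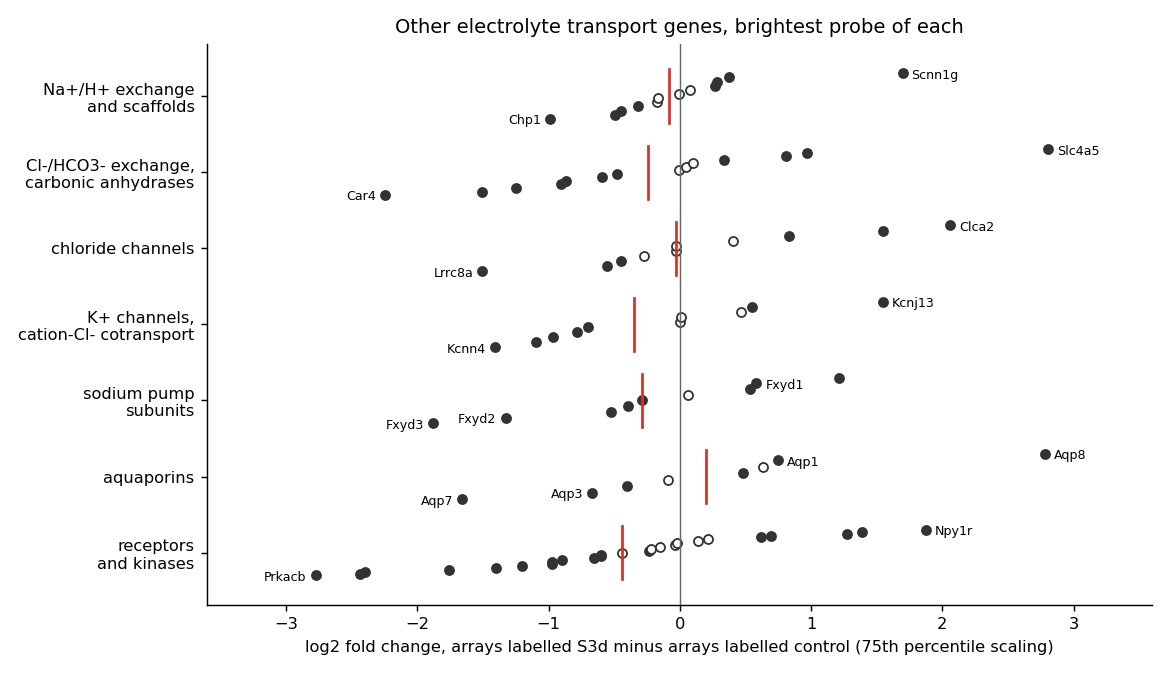
Log2 fold change (horizontal axis, S3d minus control by the scanner labels) of 88 other electrolyte transport genes in 7 roles, 1 point per gene on its brightest probe. Filled points were called at an adjusted p under 0.05 and red lines are the medians of each role. The receptors and kinases have the lowest median at this setting, -0.44. The potassium channel and cotransporter genes are lower under quantile normalization (-0.33 against -0.21) and with array weights (-0.61 against -0.39).

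Of 25 tested receptors and kinases that control transport, 5 were higher and 13 lower, with a median of -0.44 that was -0.21 under quantile normalization and -0.63 under median centring. With only genes well above background on all 6 arrays, 23 were tested, 3 higher and 14 lower (median -0.60). The deposited table by its own labels gave 11 higher and 4 lower. The most negative value was that of Prkacb (-2.77 ± 0.09, SE, limma, adjusted p = 1.2e-05), a catalytic subunit of the cAMP-dependent kinase. Npy1r, a receptor of neuropeptide Y, was measured at 1.88 (adjusted p = 0.0011), but it passed the filter through the S3d arrays alone, with 1 of 3 arrays labelled control well above background, and normexp with the same scaling gave -1.52 (not called). The remaining genes of the cAMP and cGMP routes to Cftr and Slc9a3 were picked out after their values were seen. Prkaca, the other catalytic subunit, was at -1.91, -2.28 and -2.06 on the arrays labelled control and at -4.38, -4.61 and -4.44 on those labelled S3d. The log2 fold changes of Prkar2a (-2.44, adjusted p = 1.0e-05) and Prkar1a (-0.97, adjusted p = 0.00012), regulatory subunits of that kinase, and of the adenylyl cyclase Adcy6 (-0.60, adjusted p = 0.00044) were also negative. Prkacb, Prkaca and Prkar2a were lower without scaling too, by 0.93, 0.55 and 0.59. Receptors that raise cAMP, and their ligand, were measured too. Vipr1, a receptor of vasoactive intestinal peptide, was higher (0.62, adjusted p = 0.001), as was the adenosine receptor Adora2b (0.70, adjusted p = 0.00026). The peptide Vip (-0.44), the prostaglandin receptor Ptger4 (-0.22) and the secretin receptor Sctr (0.22) were not called.

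The guanylin system, a hormone pair, its receptor and a kinase that open Cftr through cGMP, was lower in all 4 of its genes on the list, where 34.5% of all tested probes were lower. These 4 were brought together after their values were seen, with no test of the group. Pde5a, a phosphodiesterase that breaks down cGMP, was also lower (-0.90, adjusted p = 0.00026). Guca2a (guanylin) was at 8.22, 8.49 and 8.60 on the arrays labelled control and at 6.74, 6.80 and 6.48 on those labelled S3d. It changed by -1.76 ± 0.14 log2 units (SE, limma, adjusted p = 8.6e-05). Guca2b (uroguanylin) changed by -1.20 (adjusted p = 0.00058), the receptor Gucy2c by -0.60 (adjusted p = 0.00037) and the kinase Prkg2 by -0.65 (adjusted p = 0.0081). Guca2b was not called under quantile normalization (-0.31). Without scaling all 4 were above 0, and all 4 were below the median of all tested probes, 1.93.

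Markers of the cells that carry these transporters, and of other cell types, were read beside them. Called markers were 90% of those tested for villus enterocytes, 100% for proliferating crypt, 75% for goblet and Paneth and 71.4% for smooth muscle. They were 40% for neuron and glia, 85.7% for leukocytes and 100% for the ileum. Of all tested probes, 73.9% were called, 39.4% as higher and 34.5% as lower. Of 10 tested villus enterocyte markers, 8 were lower and 1 higher, with a median of -1.19, and their summed linear signal, in multiples of each array's 75th percentile, was between 4009 and 4408 on the arrays labelled control and between 1705 and 1740 on those labelled S3d. Quantile normalization changed this to 3 higher and 2 lower, with a median of -0.013. Without scaling all 10 were higher. Of 6 proliferating crypt markers, 4 were higher and 2 lower, and their sums were between 44.3 and 48.6 in control and between 42.5 and 45.0 in S3d. The goblet and Paneth markers were lower in 3 of 4 tested genes, with sums between 1265 and 1311 on the arrays labelled control and between 388 and 404 on those labelled S3d. Quantile normalization left 2 of these lower and put 1 higher. Of 7 smooth muscle markers, 2 were higher and 3 lower, with sums between 144 and 173 in control and between 126 and 146 in S3d. Both higher ones, Myh11 and Smtn, had another probe that was called lower. Of 5 tested neuron and glia markers, 2 were higher and none lower, with sums between 1.80 and 1.93 in control and between 2.05 and 2.20 in S3d. Of 7 tested leukocyte markers, 1 was higher and 5 lower, with sums between 58.1 and 59.7 in control and between 52.3 and 56.8 in S3d. Most of that sum is Lyz2, which was not called (-0.08) and is also on the goblet and Paneth list. Defa5, Nos1 and S100b were not well above background on any array. Both ileal markers, Fabp6 and Slc10a2, were lower, with sums between 2.71 and 4.01 in control and between 0.47 and 0.90 in S3d. In the deposited table by its own labels, 2 villus markers were higher and 3 lower (median -0.05), 1 crypt marker was higher and 3 lower (-0.51), and 2 goblet and Paneth markers were higher and 1 lower (0.31). There 5 leukocyte markers were higher and 2 lower, and both ileal markers were higher (2.63). Smooth muscle markers were 3 higher and 3 lower there, and neuron and glia markers 2 and 2. The part of cell composition in the transporter values was not tested, and in these bulk samples fewer cells of a type and less RNA per cell cannot be told apart.

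The genes whose signal over the 6 arrays was most like that of Slc9a3, among 13362 named probes of other genes that were above background on all arrays, were Fam43a (Pearson's r = 0.9995), Sec61a2 (0.9993) and Insig1 (0.9993). For Cftr they were Setd5 (0.9995), Ifitm3 (0.9995) and Glrx (0.9994). The 6 arrays share slides and groups, and 3217 probes for Slc9a3 and 3683 for Cftr had an r above 0.95, so these values are descriptions only.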

How the data were processed

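Jejunal RNA of 3 control and 3 S3d pools was hybridised to 1-colour (Cy3) Agilent rat arrays. The authors deposited Feature Extraction scanner output (version 10.7 per the labels), which gives each spot a median signal, a local background and a background-corrected processed signal intensity with no normalization between arrays. The authors also deposited a table of log2 values whose sorted columns differ by at most 0.0025, as quantile normalization gives. The program used for it is not given in the sources used here.

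Control and outlier spots were left out, log2 processed signals were scaled by each array's 75th percentile, and spots of a probe were averaged. A probe was well above background on an array where most of its spots were. The test took every probe for which a whole group (3 of 3 arrays) was well above background, and 9588 of 41012 probes were not tested. Control alone met this for 539 tested probes and S3d alone for 3622. All 9 transporter probes met it in both groups. The comparison used lmFit and eBayes of limma 3.58.1 under R 4.3.3 (no block, Benjamini-Hochberg over all tested probes), after a test on simulated data. Of the probes, 17512 were named through RefSeq accessions of GRCr8. The listed symbol Sis was read as the RefSeq symbol Si.

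The small number of arrays sets the precision. The transporters and lists were chosen with earlier results of these data known. Named were all transporter probes, in each role of the pathway list the called genes with the most positive and most negative change (up to 2 each way for pump subunits and aquaporins), and the 3 probes most like Slc9a3 and like Cftr. Further pathway genes (Nherf1, Pdzk1, Kcne3, Pde5a and the cAMP and guanylin genes) were named after their values were seen. Some listed genes are counted but not reported by name here. Other settings tried were median centring, quantile normalization, unscaled values, normexp with an offset of 50 on the median signal (no mean signal column is given), other filters, outlier spots kept, the deposited table, the methods' one-way analysis of variance, array weights, an intensity trend, a replicate block, the mean over probes, a fold of at least 1.5 and each array left out. The slide could not be a block.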

Additional observations from a re-analysis of the deposited data

How the results depend on the processing

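The 4 transporter probes with a log2 fold change beyond 1.1 on the scanner files (Slc9a3, Cftr and both Slc12a2 probes) kept sign and call when any array was left out, under quantile normalization, median centring, every filter and every other test run. With normexp and 75th percentile scaling Slc9a3 (-1.95), the repeated Slc12a2 probe (-0.98) and Slc4a4 (0.55) lost their calls, and the sign turned for Kcnq1 (-0.016), Slc9a2 (0.32) and Atp1b1 (0.22), where 620 probes of the array were called higher and 1443 lower and the array-wide median was -0.69 (log2). There Atp1b1 was at 7.73, 7.66 and 6.23 on the arrays labelled control, and Slc9a3 was at 3.05, 3.11 and 1.80. Slc9a2 was at 4.38, 4.55 and 3.43 on them, Slc4a4 at 1.87, 1.91 and 0.95 and Kcnq1 at -1.95, -1.91 and -0.33. Control replicate 3 thus stood apart for these genes at this setting, and its part in the turned signs and lost calls was not tested. Without scaling, 29589 probes were called higher and 582 lower, the sign turned for Slc9a2 (1.56), Atp1b1 (1.44), Cftr (0.20) and the repeated Slc12a2 probe (0.72), and Slc26a3 was called (1.94). Quantile normalization turned Slc9a2 (0.16) and Atp1b1 (0.80), as did normexp before it (0.21 and 0.77), and median centring turned Slc26a3 (-0.089) and cost Slc4a4 its call (0.10). Slc9a2 (-0.29) also lost its call with no filter, after Benjamini-Hochberg in the analysis of variance of the methods and at a fold of at least 1.5, where Slc4a4 (0.28) and Atp1b1 (-0.40) did too. The mean over both Slc12a2 probes was 0.30, which is called and positive. In the deposited table the values were 2.36 for Slc9a3, 1.65 for Cftr, 1.13 and -1.77 for the Slc12a2 probes, -0.95 for Kcnq1, -0.43 for Slc4a4, -0.13 for Slc26a3 and -0.14 for Slc9a2. With an array left out, Slc9a2 ranged from -0.36 to -0.22, Slc4a4 from 0.22 to 0.36 and Slc26a3 from -0.089 to 0.26, through -0.001. Replicate numbers did not pair the samples (correlations of deviations 0.020, 0.022 and -0.049), and the replicate block left the log2 fold changes of Slc9a2 (-0.29) and Slc4a4 (0.28) unchanged and without a call (adjusted p = 0.098 and 0.058, limma).

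Transporter genes called higher and lower, 3 and 4 as reported, were 6 and 1 without scaling and 1 and 1 with normexp and 75th percentile scaling. Those called lower were 2 under quantile normalization, with or without normexp, and 2 at a fold of at least 1.5. The listed pathway genes, 24 and 40 as reported, were 78 and 3 without scaling and 2 and 5 with normexp and 75th percentile scaling, and 35 and 24 in the deposited table. The difference between absorptive and secretory genes, -1.25 as reported, was -1.06 under quantile normalization, -0.93 with normexp before it, -0.67 with normexp and 75th percentile scaling, -0.89 with the mean over probes and 1.07 in the deposited table. The 2 choices made after seeing the data gave -0.54 (other probe of Slc12a2) and -0.79 (without Slc12a2), and they turned the median of the secretory genes, 0.67 as reported, to -0.42 and moved it to 0.28. The cause of these changes was not tested.

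Signs of pathway genes turned as follows. The deposited table gave Nherf1 (0.26), Pdzk1 (0.034), Kcne3 (0.96), Gucy2c (0.36), Guca2a (0.75), Guca2b (0.30), Prkg2 (0.62), Prkaca (2.72), Prkar1a (0.68), Prkar2a (2.64), Adcy6 (0.30), Scnn1g (-0.99), Chp1 (0.78), Slc4a5 (-2.26), Car4 (1.71), Clca2 (-1.95), Lrrc8a (1.54), Kcnj13 (-1.54), Kcnn4 (1.09), Fxyd1 (-0.60), Fxyd2 (1.33), Fxyd3 (1.57), Aqp8 (-2.95), Aqp1 (-0.88), Aqp3 (0.39), Aqp7 (1.38), Npy1r (-1.25), Vip (0.19), Vipr1 (-0.58), Ptger4 (0.23), Adora2b (-0.60), Pde5a (0.88) and Prkacb (2.95). No scaling gave Nherf1 (1.40), Pdzk1 (1.53), Kcne3 (0.75), Gucy2c (1.25), Guca2a (0.086), Guca2b (0.65), Prkg2 (1.20), Prkar1a (0.87), Adcy6 (1.24), Chp1 (0.86), Lrrc8a (0.34), Kcnn4 (0.44), Fxyd2 (0.52), Aqp3 (1.18), Vip (1.41), Ptger4 (1.63), Pde5a (0.95) and Aqp7 (0.19). Normexp with 75th percentile scaling gave Pdzk1 (0.27), Scnn1g (-1.62), Slc4a5 (-1.05), Adora2b (-0.099), Sctr (-1.36) and Npy1r (-1.52), and normexp with quantile normalization gave 0.054 for Pdzk1 and -0.017 for Sctr. Sctr, not called as reported, was at -0.097 under quantile normalization and between -0.021 and 0.37 with an array left out. Scnn1g, Slc4a5 and Npy1r were well above background on at most 1 of 3 arrays labelled control.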
